A study of Mus musculus with 4 samples.

Results

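The genes described here are the 7 genes of the biotin cycle and of the biotin-dependent carboxylases other than propionyl-CoA carboxylase. They are Hlcs, Btd, Pcx, Mccc1, Mccc2, Acaca and Acacb, chosen by symbol. All 7 were matched to an identifier among the 55487 gene identifiers of the count tables, and all 7 were among the 14411 genes that passed the filter on low counts. Polyadenylated RNA was sequenced from liver of 4 female FVB mice, 11 weeks old and fed standard chow. The WT group held 2 mice, and the PA group held 2 mice that the labels call hypomorphic for Pcca, written as Pcca-/- (A138T). Mice of that name are known to lack the mouse gene and to carry a transgene for the human protein with the A138T change; the labels do not name the transgene or its promoter. The series calls the replicates biological, and the question is how liver transcripts differ between PA and WT.

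Biotin is a vitamin that serves as the carbon dioxide carrier of a small set of carboxylases. Holocarboxylase synthetase, encoded by Hlcs, attaches biotin to a lysine of each carboxylase, and biotinidase, encoded by Btd, frees it again when the enzymes are degraded, so the vitamin is reused. In liver, pyruvate carboxylase (Pcx) makes oxaloacetate in mitochondria for gluconeogenesis and the TCA cycle. Methylcrotonyl-CoA carboxylase, built from a biotin-bearing subunit (Mccc1) and a partner (Mccc2), acts in leucine breakdown. The acetyl-CoA carboxylases make malonyl-CoA, in the cytosol for fatty acid synthesis (Acaca) and at the mitochondrial surface, where malonyl-CoA restrains fatty acid import (Acacb). Propionyl-CoA carboxylase, the enzyme impaired in propionic acidemia, is a further member of this enzyme family, and its biotin-bearing subunit is encoded by Pcca.

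The attachment lysine lies between methionines, and the coding sequence around it is shown because it is what the substrates of Hlcs have in common. The codons for methionine, lysine and methionine, ATGAAGATG or ATGAAAATG, were searched in frame in the longest annotated coding transcript of each gene (GENCODE M21, GRCm38). Each of the 5 biotin-bearing carboxylase genes held exactly 1 match. Hlcs, Btd and Mccc2, which carry no biotin on such a site, held 0. Below are 51 transcript bases, 5′ to 3′, with the matched codons in capitals.
Pcx: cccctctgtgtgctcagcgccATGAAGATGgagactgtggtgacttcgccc
Mccc1: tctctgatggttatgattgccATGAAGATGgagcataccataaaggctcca
Pcca: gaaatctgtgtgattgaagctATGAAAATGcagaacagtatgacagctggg
Acaca: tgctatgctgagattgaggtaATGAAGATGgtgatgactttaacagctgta
Acacb: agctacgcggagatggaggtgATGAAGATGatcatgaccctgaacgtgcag
Pcx carried the match in exon 21 (chromosome 19, 4621178 to 4621186, plus strand), with the lysine at codon 1145 of 1179. In Mccc1 it lay in exon 18 (chromosome 3, 35960936 to 35960944, minus strand), at codon 677 of 717. In Pcca it lay in exon 23 (chromosome 14, 122887083 to 122887091, plus strand), at codon 690 of 724. These 3 sites thus stood 34 to 40 codons before the end of the coding sequence. The acetyl-CoA carboxylase sites were internal. Acaca had it in exon 20 (chromosome 11, 84260627 to 84260635, plus strand), at codon 785 of 2345, and Acacb in exon 19 (chromosome 5, 114207239 to 114207247, plus strand), at codon 919 of 2448. Acaca and Acacb shared 34 of the 51 bases, more than any other pair of the 5, and the other pairs shared 21 to 29. Pcca alone among them used ATGAAAATG.

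Gene counts summed to between 25575016 and 30110400 per library, and mice are numbered by their replicate number. Pcca, read as the check of the genotype, was at 60.3 and 58.9 CPM (counts per 1000000 counts, on TMM-scaled library sizes) in WT and at 34.2 and 47.4 CPM in PA (log2 fold change -0.55 ± 0.22 SE, edgeR quasi-likelihood test, adjusted p = 0.398). Such a count does not tell a disrupted transcript from a normal one. On the length-normalised TPM scale, Pcca was at 34.4 and 35.2 in WT and at 20.9 and 37.4 in PA, so the groups overlapped. The mitochondrial genome gave 6.90 and 7.38% of the counts of the WT mice, 13.6% for PA mouse 1 and 8.98% for PA mouse 2. The tissue label was checked against hepatocyte markers. The 5 of 6 that were found by symbol summed to 144171 and 162961 CPM in WT and to 135998 and 166101 CPM in PA. The 4 Kupffer cell markers summed to 491 and 420 CPM in WT and to 199 and 292 CPM in PA, and the 3 red blood cell markers to 74.4 and 40.1 CPM in WT mice and 10.8 and 14.8 CPM in PA mice. Of these marker lists the first 2 held 0 called genes, and 1 red blood cell marker, Hbb-bs, was called lower. The 4 cholangiocyte markers summed to 3.75 and 2.95 CPM in WT and to 5.61 and 5.55 CPM in PA, with 4 higher values and 0 called. B cell markers summed to 2.97 and 3.14 CPM in WT and to 1.18 and 1.41 CPM in PA. For endothelial and stellate markers the sums of the groups overlapped. The part of all these markers in the values of the 7 genes was not tested. In bulk tissue, fewer cells of a type and less RNA per cell cannot be told apart.

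Across all tested genes, edgeR called 117 of 14411 (0.812%) between PA and WT at an adjusted p of 0.05, 38 higher (0.264%) and 79 lower (0.548%). DESeq2 called 442 genes and limma-voom 87. None of the 7 biotin genes was among them by edgeR, DESeq2 or limma-voom, and 1, Hlcs, had an edgeR unadjusted p under 0.05, against 11.8% of all tested genes. Their median log2 fold change was 0.13, against 0.0049 over all tested genes. The CPM of the groups did not overlap for 3 of the 7. Hlcs and Pcx were higher in both PA livers, which held for 21.3% of all tested genes, and Btd was lower in both, which held for 21.9%. With 2 mice per group, these shares are the frame for such counts.

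**Figure D1:**
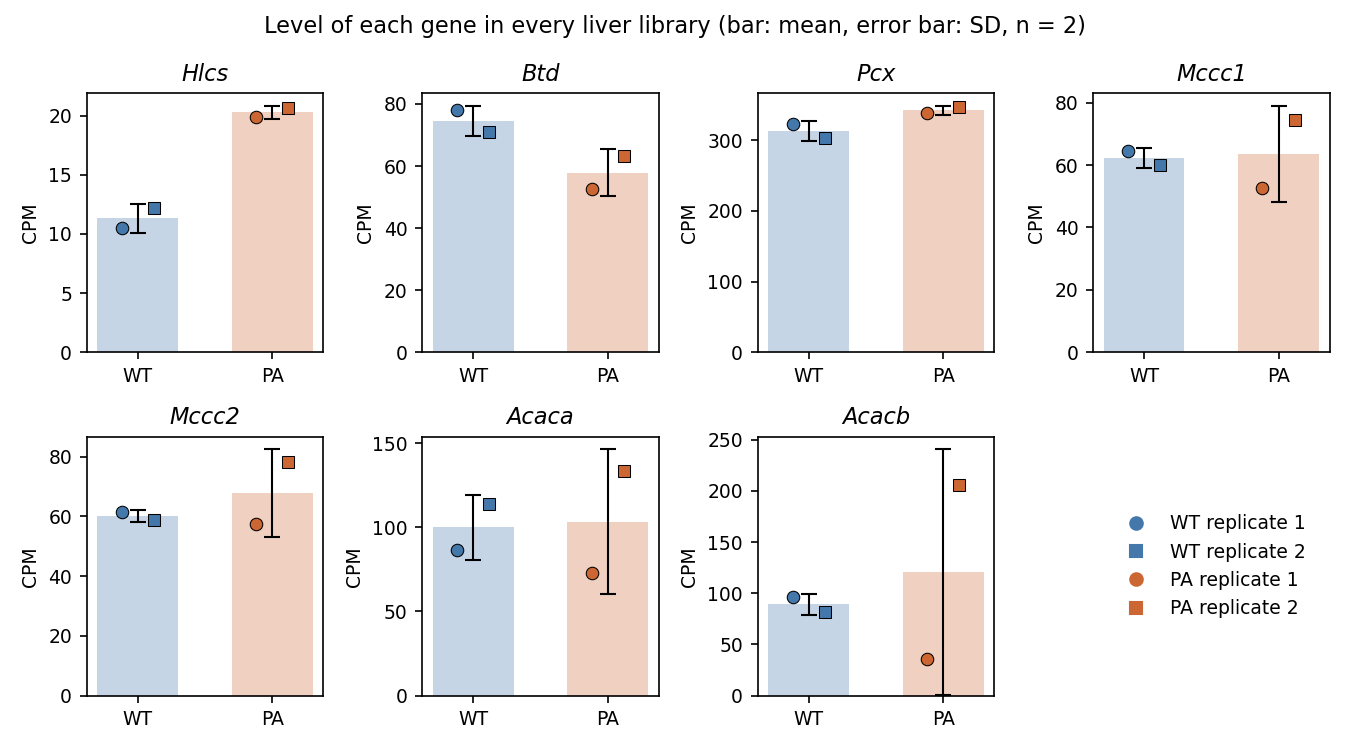
Level of each gene in CPM (vertical axes, from 0) in the WT and PA livers. Points are libraries, bars are means and error bars are SD (n = 2 each). The PA points lie above both WT points for Hlcs and Pcx and below them for Btd, while for Acacb they lie on either side, at 35.6 and 205 CPM.

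Hlcs (ENSMUSG00000040820; chromosome 16, 94128882 to 94313571, minus strand, GRCm38), the ligase that loads every biotin enzyme, showed the clearest separation of the 7 genes in CPM. It was read at 10.5 and 12.2 CPM in WT mice and 19.9 and 20.7 CPM in PA mice, from 310 to 614 reads per library. Both PA libraries were above both WT libraries, and the gap between the groups was larger than the gap within either. WT averaged 11.3 ± 1.21 CPM and PA averaged 20.3 ± 0.564 CPM (SD, n = 2 each), a 1.79-fold difference with a 95% interval of 1.29 to 2.48. The log2 fold change was 0.84 ± 0.20 (SE). Its unadjusted p ranked 372 of the 14411 tested genes, and after Benjamini-Hochberg adjustment over all of them the edgeR adjusted p was 0.15, so Hlcs was not called. DESeq2 gave an adjusted p of 0.0777 and limma-voom 0.149. With no filter on low counts, edgeR called Hlcs (log2 fold change 0.83, adjusted p = 0.0365), in a fit that called 902 genes in all. The log2 fold change stayed between 0.73 and 0.96 when any library was left out. No read of the 4 libraries fell on the other strand of Hlcs, and the annotated genes inside its introns or exons held at most 10 reads per library.

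The genes whose pattern over the 4 libraries was most like that of Hlcs were sought among 6890 protein-coding genes with a mean of at least 10 CPM. The measure was the distance between log2 CPM values, each centred on the gene's own mean. Mat1a, which makes S-adenosylmethionine, was nearest (distance 0.0758), at 2686 and 3166 CPM in WT mice and 5012 and 4930 CPM in PA mice. Next came the copper chaperone gene Atox1, the urea cycle gene Asl, the lysosomal protease gene Ctsz and Aifm2, at distances of 0.0786 to 0.0892. Their log2 fold changes were 0.76 to 0.84 and none was called (edgeR adjusted p = 0.124 to 0.338). Genes chosen by this distance must have fold changes near that of Hlcs, so those values carry no further weight. The likeness describes these 4 libraries only.

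Btd (ENSMUSG00000021900; chromosome 14, 31641028 to 31668579, plus strand), which recycles biotin, was read at 78.0 and 71.1 CPM in WT mice and 52.4 and 63.2 CPM in PA mice. Both PA values were below both WT values. The log2 fold change was -0.37 ± 0.20 (SE; edgeR adjusted p = 0.552; 95% interval of the fold 0.556 to 1.08), so the difference was not called. Btd lies on the chromosome that holds Pcca, 90.9 Mb away. Its first 259 bases overlap the start of Hacl1 on the opposite strand, a gene for a peroxisomal lyase that acts on 2-hydroxy fatty acids. Hacl1 was at 47.1 and 29.3 CPM in WT mice and 19.7 and 33.6 CPM in PA mice (log2 fold change -0.52 ± 0.33 SE, edgeR adjusted p = 0.605), with overlapping groups. Reads on the other strand of Btd numbered 50 and 27 in WT and 24 and 16 in PA, against 1336 to 2392 on its own strand, so the overlap moved few reads.

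Since Hlcs and Btd differed in opposite directions, their ratio was taken within each library, a choice made after the values were seen. Btd had 16.2 and 12.0 times the TPM of Hlcs in WT and 6.47 and 6.85 times in PA. The direction of this ratio was fixed by the choice of the pair, so its exact two-sided permutation p of 0.333, the smallest possible, carries no weight. Per 100 TPM summed over the 5 biotin-bearing carboxylase genes, Hlcs stood at 1.51 and 1.77 TPM in WT and at 3.0 and 2.33 TPM in PA (exact two-sided permutation p = 0.333, the smallest that 2 against 2 mice can give). This and the other sums, shares and ratios of TPM between genes were also chosen after the values were seen. The summed carboxylase level itself was 191 and 180 TPM in WT and 126 and 212 TPM in PA, so PA replicate 1 was below and PA replicate 2 above both WT livers. This sum, also used for the Hlcs share, includes Pcca, whose reads do not tell a disrupted transcript from a normal one.

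Slc5a6, which encodes the multivitamin transporter that takes up biotin, was read at 3.65 and 12.1 CPM in WT mice and 5.85 and 5.52 CPM in PA mice (log2 fold change -0.46, edgeR adjusted p = 0.781). The PA values lay between the WT values. The difference between the WT mice was larger than that for 99.5% of tested genes.

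On the length-normalised scale, Pcx was the highest of the 7 genes in every library. Its TPM was 91.2 ± 7.69 in WT (SD, n = 2), 2.14 times that of Btd, the next gene, and the ranges of these genes did not overlap in any pair of libraries. In WT the order was Pcx, Btd, Mccc2, Mccc1, Acaca, Acacb and Hlcs, with no overlap between neighbours over the 2 WT libraries. From Btd to Acacb, neighbours stood 1.19 to 1.55 times apart in WT, and over all 4 libraries their ranges overlapped. Hlcs was the lowest in WT, at 3.04 ± 0.205 TPM, and Acacb was 3.97 times higher. In PA every pair of neighbours of that order below Pcx overlapped. In PA replicate 1 Acacb, at 3.71 TPM, was below Hlcs at 3.77 TPM, while in PA replicate 2 Acacb, at 26.9 TPM, was above Acaca at 22.3 TPM. TPM was used for order within a library, and TPM ranges, sums and ratios are also set side by side across libraries. Across libraries TPM and CPM did not always give the same direction. In PA replicate 1, where the mitochondrial share was highest, Pcx had 72.2 TPM against 85.8 to 96.6 in WT, although its CPM was above that of both WT libraries. The difference of the mean log2 values of Pcx, PA minus WT, was -0.15 by TPM and -0.015 by FPKM, so its direction turned on these scales. By TPM the direction also turned for Mccc1, Mccc2, Acaca and Acacb, with values given in the closing section. The part of that share in the TPM values was not tested.

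**Figure D2:**
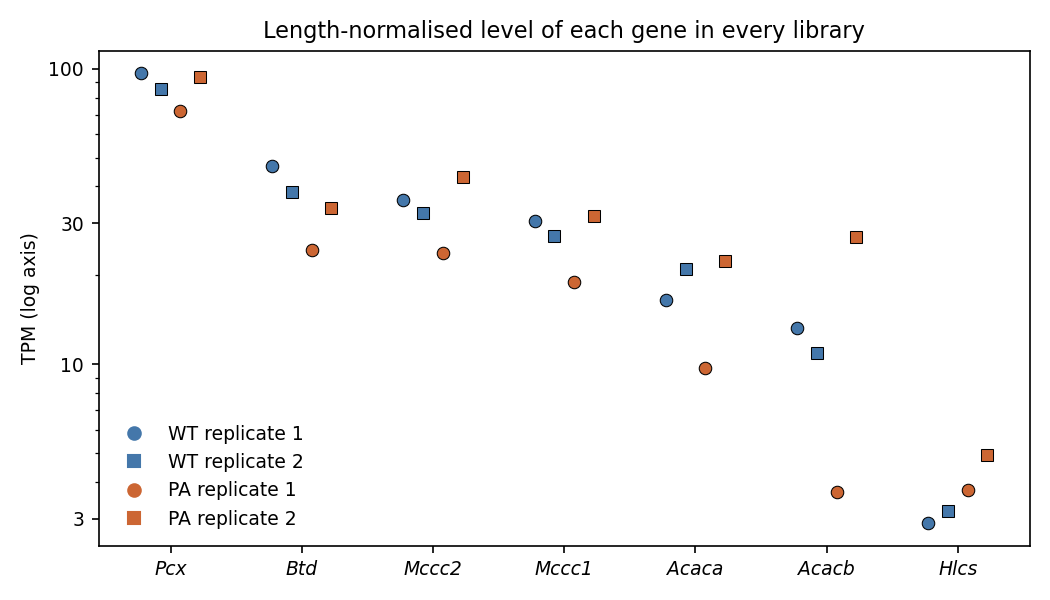
TPM of each gene (vertical log axis) in every library, with genes ordered by their WT mean. Pcx is highest in all 4 libraries, at 72.2 to 96.6 TPM, and Acacb spans 3.71 to 26.9 TPM.

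Pcx (ENSMUSG00000024892; chromosome 19, 4510472 to 4621752, plus strand) varied little. It was read at 323 and 303 CPM in WT mice and 338 and 347 CPM in PA mice, with both PA values above both WT values. The difference was small, with a log2 fold change of 0.13 ± 0.22 (SE; edgeR adjusted p = 0.881; 95% interval of the fold 0.76 to 1.57). The PA mice differed from each other by 0.04 on the log2 scale, less than for most tested genes (7.08th percentile of the size of that difference). Among the 22 listed genes that supply or use pyruvate and oxaloacetate, 22 were tested and 0 were called by edgeR, DESeq2 or limma-voom. An edgeR unadjusted p under 0.05 was seen for 6 of the 22, against 11.8% of all tested genes. Of the 22 listed genes, 10 had higher and 12 lower values in PA, with a median log2 fold change of -0.0087. The smallest p-values were those of Got2, the mitochondrial aspartate aminotransferase, and Dlat, a pyruvate dehydrogenase subunit. Got2 was at 242 and 239 CPM in WT mice and 381 and 401 CPM in PA mice (log2 fold change 0.70, edgeR adjusted p = 0.269). Dlat was at 34.5 and 41.4 CPM in WT mice and 58.7 and 57.9 CPM in PA mice (log2 fold change 0.62, edgeR adjusted p = 0.27).

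Mccc1 (ENSMUSG00000027709; chromosome 3, 35959312 to 36000678, minus strand) and Mccc2 (ENSMUSG00000021646; chromosome 13, 99948530 to 100015639, minus strand) moved alike from mouse to mouse. Mccc1 was at 64.6 and 59.9 CPM in WT mice and 52.8 and 74.5 CPM in PA mice. Mccc2 was at 61.4 and 58.6 CPM in WT mice and 57.3 and 78.1 CPM in PA mice. For each subunit PA replicate 1 was the lowest and PA replicate 2 the highest of the 4 libraries, so the groups overlapped. That held for 4 of the 7 genes, the others being Acaca and Acacb, against 9.43% of all tested genes. PA replicate 2 was above PA replicate 1 for all 7 genes, against 49.8% of all tested genes. The log2 fold changes were 0.03 for Mccc1 (SE 0.23, edgeR adjusted p = 0.976) and 0.17 for Mccc2 (SE 0.22, edgeR adjusted p = 0.822). The 95% intervals of the fold were 0.703 to 1.49 and 0.785 to 1.62. Mccc1 had 0.85 and 0.837 times the TPM of Mccc2 in WT and 0.798 and 0.741 times in PA, with an exact permutation p of 0.333, the smallest possible. That ratio was chosen after the values were seen. Antisense genes overlap Mccc1, and counts made without regard to strand held 77.9 to 80.1% of its stranded counts. Mccc2 has no overlapping gene in the annotation.

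Of 10 other genes of the leucine pathway, 10 were tested and 0 were called by edgeR, DESeq2 or limma-voom, with 6 higher and 4 lower values in PA and a median log2 fold change of 0.18. In that list 1 gene, Dbt, had an edgeR unadjusted p under 0.05, against 11.8% of all tested genes. Dbt, a subunit of the branched-chain ketoacid dehydrogenase, was at 60.1 and 69.9 CPM in WT mice and 85.3 and 150 CPM in PA mice (log2 fold change 0.85, edgeR adjusted p = 0.311). It was called with no filter on low counts (adjusted p = 0.0359) and without PA replicate 1 (log2 fold change 1.21, adjusted p = 0.0237). Ivd, whose product makes the substrate of methylcrotonyl-CoA carboxylase, was at 145 and 135 CPM in WT mice and 179 and 215 CPM in PA mice (log2 fold change 0.50, edgeR adjusted p = 0.453).

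Promoter sequences of the methylcrotonyl-CoA carboxylase subunits are shown because these genes had the same order of the 4 libraries, an order that Acacb also had. They run from 250 bases before to 50 after the RefSeq start (GRCm38.p6). Capitals mark matches on either strand to any of 4 motifs. The CCAAT box was searched by those letters and the E-box as CACGTG. The GC box was searched as GGGCGG, and an element known for SREBP binding as TCACNCCAC.
Mccc1 (chr3:36000629-36000928, minus strand): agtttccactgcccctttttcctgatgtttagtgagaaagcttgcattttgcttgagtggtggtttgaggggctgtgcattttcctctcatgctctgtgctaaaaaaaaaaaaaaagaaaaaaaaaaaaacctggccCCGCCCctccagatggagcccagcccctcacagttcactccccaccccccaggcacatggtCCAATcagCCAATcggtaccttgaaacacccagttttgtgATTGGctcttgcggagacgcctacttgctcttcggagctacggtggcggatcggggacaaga
Mccc2 (chr13:100015590-100015889, minus strand): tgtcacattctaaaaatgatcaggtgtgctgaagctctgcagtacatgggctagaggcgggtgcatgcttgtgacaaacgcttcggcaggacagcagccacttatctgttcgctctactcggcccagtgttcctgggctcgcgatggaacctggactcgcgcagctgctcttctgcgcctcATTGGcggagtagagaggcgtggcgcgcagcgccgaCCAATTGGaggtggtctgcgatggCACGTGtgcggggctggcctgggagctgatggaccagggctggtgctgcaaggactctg
Each of these windows held 3 CCAAT matches, 2 of which overlap in Mccc2. Among 32817 promoter windows of the same length, 37.4% held a CCAAT match and 3.37% held 3 or more. The count is not particular to this pair: the first of the Pcx windows also held 3 CCAAT matches, with 1 E-box and 2 GC boxes. Mccc1 also held a GC box, found in 35.6% of all windows, and Mccc2 an E-box, found in 7.15%.

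The acetyl-CoA carboxylase genes differed between the PA mice, Acacb far more than Acaca, and did not separate the genotypes. Acacb (ENSMUSG00000042010; chromosome 5, 114146535 to 114250761, plus strand) was read at 96.4 and 81.7 CPM in WT mice, 35.6 CPM in PA mouse 1 and 205 CPM in PA mouse 2. The PA mice thus lay below and above both WT mice, 5.77-fold apart. On the log2 scale they differed by 2.51, the size of difference ranked 19 of the 14411 tested genes, while the WT mice differed by -0.24. The log2 fold change between groups was 0.44 ± 0.67 (SE; edgeR adjusted p = 0.861; 95% interval of the fold 0.456 to 4.02). Without PA replicate 1 it was 1.21 (adjusted p = 0.025), and without PA replicate 2 it was -1.32 (adjusted p = 0.0219), so either PA library alone gave a call and the directions were opposite. It was -0.07 by limma-voom, so the sign also turned with the tool. Adipocyte markers summed to at most 0.628 CPM and skeletal muscle markers to at most 0.118 CPM in any library, with Plin1, Lep, Ckm and Myh4 at 0 reads. Pancreas acinar markers summed to 29.2 and 16.8 CPM in WT and to 11.4 and 7.74 CPM in PA. The part of these markers in the Acacb values was not tested.

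Acaca (ENSMUSG00000020532; chromosome 11, 84129672 to 84401651, plus strand) showed the same order of the PA mice over a narrower range. It was at 86.2 and 114 CPM in WT mice, 72.9 CPM in PA mouse 1 and 134 CPM in PA mouse 2. The PA mice were 1.83-fold apart and again lay on either side of the WT mice. On the log2 scale the PA mice differed by 0.87, the size of difference ranked 1003 of the 14411 tested genes. The WT mice differed by 0.40. The log2 fold change was 0.05 ± 0.32 (SE; edgeR adjusted p = 0.975; 95% interval of the fold 0.613 to 1.74), and leaving out PA replicate 2 gave -0.46, leaving out PA replicate 1 gave 0.42. Together Acaca and Acacb summed to 29.7 and 31.9 TPM in WT, 13.4 TPM in PA mouse 1 and 49.2 TPM in PA mouse 2. Acacb made up 44.6 and 34.3% of that sum in WT, 27.6% in PA mouse 1 and 54.7% in PA mouse 2. Gm11437 overlaps Acaca on the opposite strand and held 216 to 375 reads per library, while reads on the other strand of Acaca numbered 0 to 5. RSEM expected counts were 109 to 114% of the stranded counts for Acaca, against 79.2 to 91.4% for the others of the 7 genes.

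**Figure D3:**
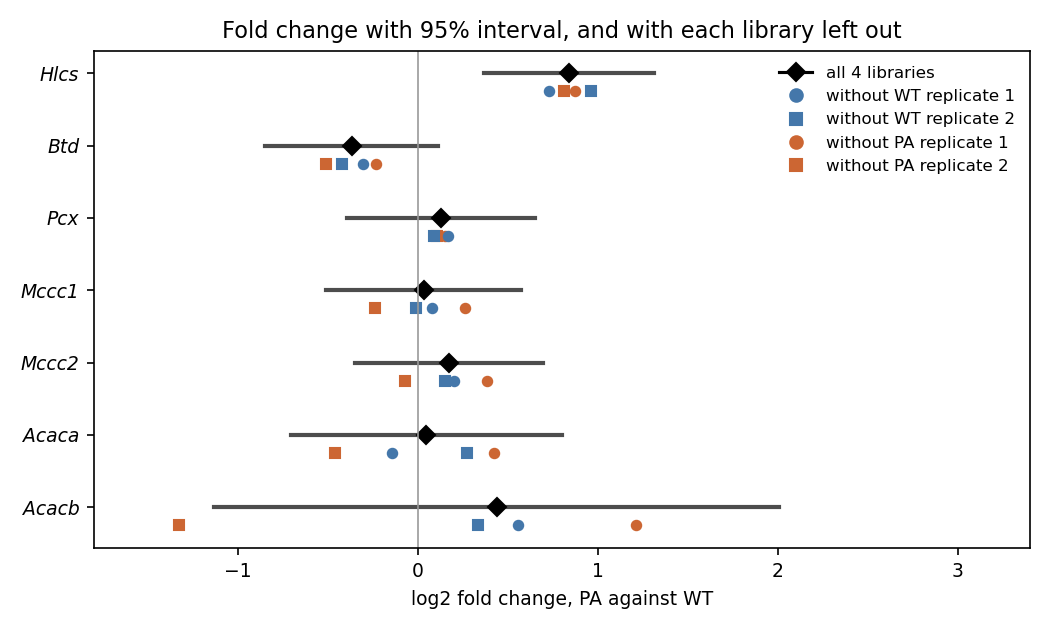
Log2 fold change of each gene, PA against WT (horizontal axis), from all 4 libraries with its 95% interval (diamonds and lines), and with each library left out (coloured points). The interval of Hlcs lies above 0, while the left-out points of Acacb run from -1.32 to 1.21.

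Genes that use, degrade or control malonyl-CoA were read from a list of 17, all of which were tested. By edgeR, DESeq2 and limma-voom 0 were called, and the median log2 fold change was 0.03. An edgeR unadjusted p under 0.05 was seen for 1 of the 17, against 11.8% of all tested genes. The smallest p-values were those of Mlxipl, which encodes the carbohydrate-responsive factor ChREBP, and Prkab2, a subunit of the AMP-activated kinase that inhibits acetyl-CoA carboxylase. Mlxipl was at 124 and 103 CPM in WT mice and 62.6 and 88.6 CPM in PA mice (log2 fold change -0.59, edgeR adjusted p = 0.417). Prkab2 was at 2.25 and 2.16 CPM in WT mice and 3.02 and 3.97 CPM in PA mice (log2 fold change 0.67, edgeR adjusted p = 0.427).

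PA mouse 2 was above PA mouse 1 for 11 of the 17 malonyl-CoA genes and for 24 of the 52 genes of all lists, against 49.8% of all tested genes. PA mouse 1 was the lowest and PA mouse 2 the highest library, as for Acacb, in 6 of the 52 (11.5%), against 9.43% of all tested genes. Of those 6, Fasn, Acly and Srebf1 are described, chosen after their values were seen. Fasn, the fatty acid synthase, was at 513 and 640 CPM in WT mice, 311 CPM in PA mouse 1 and 1354 CPM in PA mouse 2. Acly, which makes cytosolic acetyl-CoA, was at 360 CPM in both WT livers, 178 CPM in PA mouse 1 and 807 CPM in PA mouse 2. Srebf1, a transcription factor of lipid synthesis, was at 179 and 203 CPM in WT mice, 140 CPM in PA mouse 1 and 334 CPM in PA mouse 2. The others were Prkaa1, Prkab1 and Bckdk, which encode kinases or kinase subunits. Further genes of lipid synthesis in the malonyl-CoA list had another order. Thrsp was at 403 and 910 CPM in WT mice and 480 and 1399 CPM in PA mice, and Mid1ip1 at 32.6 and 52.1 CPM in WT mice and 44.0 and 64.7 CPM in PA mice, so that WT mouse 1 was the lowest for both. G6pc, which releases glucose in gluconeogenesis, had the opposite order within PA, at 311 CPM in PA mouse 1 and 70.8 CPM in PA mouse 2, with 536 and 260 CPM in WT. Without PA replicate 1, Acly and Fasn were called higher (log2 fold changes 1.17 and 1.24) and G6pc lower (-2.49). Without PA replicate 2, Acly was called lower (-1.02) and Trib3 higher (1.39). These are differences between 2 mice of 1 group and have no replicate.

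**Figure D4:**
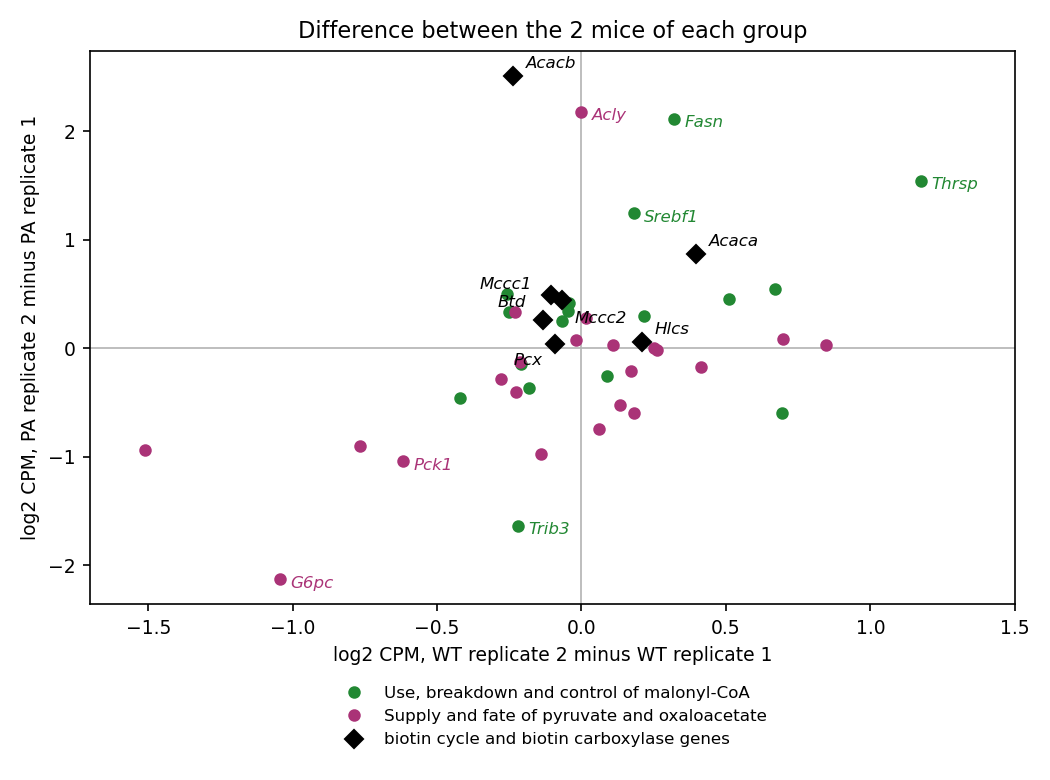
Difference in log2 CPM between the 2 WT mice (horizontal axis) and between the 2 PA mice (vertical axis) for the 7 genes and for listed genes of malonyl-CoA and pyruvate metabolism. Acacb lies highest, at 2.51 on the vertical axis, near Acly and Fasn, and G6pc lies lowest, at -2.13.

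The RefSeq promoter windows of the acetyl-CoA carboxylase genes are shown because these genes separated the PA mice, with the same motifs in capitals. Both starts lie inside the annotated genes, 65.8 kb after the gene start given above for Acaca and 19.0 kb after that for Acacb.
Acaca (chr11:84195188-84195487, plus strand): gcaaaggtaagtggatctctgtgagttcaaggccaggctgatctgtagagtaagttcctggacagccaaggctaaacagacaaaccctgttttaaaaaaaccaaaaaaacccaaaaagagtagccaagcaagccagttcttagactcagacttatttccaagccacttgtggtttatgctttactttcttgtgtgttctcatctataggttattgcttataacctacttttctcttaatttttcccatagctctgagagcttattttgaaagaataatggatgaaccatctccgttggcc
Acacb (chr5:114165268-114165567, plus strand): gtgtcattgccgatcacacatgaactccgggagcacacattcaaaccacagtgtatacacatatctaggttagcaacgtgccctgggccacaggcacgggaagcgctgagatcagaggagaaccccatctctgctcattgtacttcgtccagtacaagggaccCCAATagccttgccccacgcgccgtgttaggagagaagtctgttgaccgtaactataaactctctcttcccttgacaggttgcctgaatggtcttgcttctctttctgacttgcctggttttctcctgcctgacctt
The Acaca window held none of the 4 motifs, and the Acacb window held 1 CCAAT match. The SREBP element was in 0 of the 10 windows of the 7 genes and in 1.24% of all windows. The table gives 1 start for each of these genes, and the absence of letters from a window says nothing on other starts or on a factor.

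The RSEM files also give an average transcript length per gene, weighted by the estimated share of each transcript, which changes when other transcripts are used. In Acaca it was 7659 and 7735 bases in WT and 8242 and 8190 bases in PA, 519 bases longer on average. In Pcx it was 3884 and 3887 bases in WT and 4041 and 4026 bases in PA, 148 bases longer, with an SD of 2.23 bases in WT and 10.7 bases in PA. Hlcs was at 4436 and 4247 bases in WT and 4675 and 4533 bases in PA, and Mccc2 at 1984 and 1951 bases in WT and 2042 and 1987 bases in PA. In these 4 genes both PA values exceeded both WT values, by only 2.21 bases at the nearest in Mccc2, and in Btd, Mccc1 and Acacb the groups overlapped. Among 11814 tested genes with several transcripts, 20.9% were longer in both PA livers and 13.0% shorter, with a median difference of 2.77 bases. The exact permutation p was 0.333 for each of the 4 genes, the smallest possible. Acaca is annotated with 9 transcripts and Pcx with 7, and the files used here do not give the level of each.

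**Figure D5:**
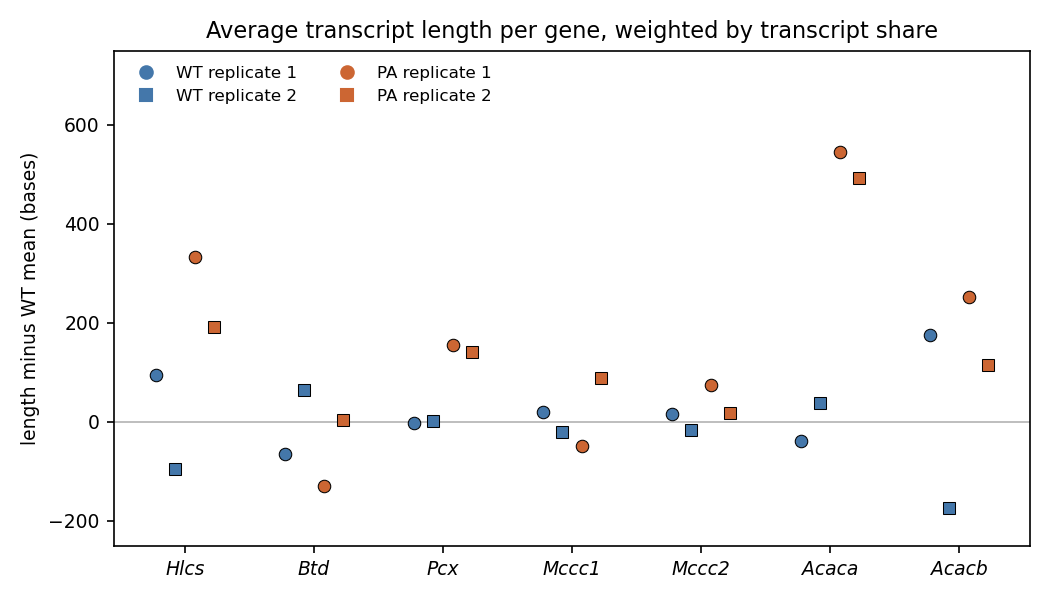
Average transcript length per gene in each library minus the WT mean of that gene, in bases (vertical axis). The PA points of Acaca and Pcx lie close together, on average 519 and 148 bases above the WT mean, and those of Btd, Mccc1 and Acacb mix with the WT points.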

How the data were processed

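Each library had 2 deposited files. The first is a STAR gene table of the authors with raw counts; its column 4, for the strand opposite to the read, held 97.0 to 97.1% of stranded counts and was used. The 4 summary lines, which name no gene, held 28.1 to 34.3% of reads and were left out. The second, from RSEM, holds lengths, TPM, FPKM and expected counts, per the file headers. The submitters' processing notes name STAR 2.7.6a, RSEM 1.3.3 and GRCm38. The annotation release is not given in the sources used here. Of the identifiers, 55141 matched GENCODE M21 (GRCm38) and 346 did not.

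Counts were tested with edgeR 4.0.16 in R 4.3.3 (quasi-likelihood, TMM, filterByExpr, prior count 0.125, genotype as the only term), with Benjamini-Hochberg adjustment over all tested genes at 0.05. Standard errors are the log2 fold change over the square root of F. A log2 difference between mice uses CPM plus 0.5. Alternatives were DESeq2 1.42.0, limma-voom (limma 3.58.1), other filters, scalings and counts, a replicate block, and each library left out. RSEM expected counts were rounded. Before TMM scaling, a CPM of 0.0996 to 0.117 corresponds to 3 counts, for counting error only. The replicates differed beyond sampling noise (chi-square per degree of freedom 46.3 in WT and 135 in PA). The genes, lists and naming rule were chosen with earlier results of these data known. The rule names all 7 genes, Pcca and Pccb, the called genes or otherwise the 2 smallest p-values of each list, and the 5 genes most like the gene with the smallest p; others were named after their values were seen. Pccb was at 136 and 132 CPM in WT and 149 and 139 CPM in PA (edgeR adjusted p = 0.896).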

Additional observations from a re-analysis of the deposited data

How the results depend on the processing

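With 2 mice per group, lack of a call does not show lack of change, and a fit without 1 library assumes that the lone mouse varies like the other group. The count of called genes, 117 (38 higher, 79 lower), became 902 (414 and 488) with no filter on low counts, 442 (186 and 256) with DESeq2 and 318 (126 and 192) with the replicate block. With 1 library left out it ranged from 155 to 500 (50 to 239 higher, 105 to 261 lower). Of the 7 genes 0 were called, and 1 with no filter (Hlcs, log2 fold change 0.83). With 1 library left out 0 to 1 were called, and the 1 was Acacb. Of the listed pathway genes 0 were called, 2 with no filter (Dbt and G6pc), and 0 to 4 with 1 library left out. The sign turned for Mccc1 with library sizes only (-0.014), for Acaca and Acacb with limma-voom (-0.012 and -0.067) and with the replicate block (-0.0041 and -0.048). With 1 library left out the log2 fold change ran from -0.24 to 0.26 for Mccc1, -0.069 to 0.38 for Mccc2, -0.46 to 0.42 for Acaca and -1.32 to 1.21 for Acacb. The log2 fold change from the counts kept its direction in all 15 alternatives for Hlcs, Btd and Pcx. The difference of mean log2 TPM, PA minus WT, was above 0 for Hlcs only (0.51). It was -0.56 for Btd, -0.15 for Pcx, -0.23 for Mccc1, -0.098 for Mccc2, -0.34 for Acaca and -0.27 for Acacb. By FPKM it was 0.64 for Hlcs, -0.43 for Btd, -0.015 for Pcx, -0.099 for Mccc1, 0.034 for Mccc2, -0.20 for Acaca and -0.14 for Acacb. The replicate numbers were not taken to pair the mice, since the labels tie no WT mouse to a PA mouse. Deviations of same-numbered mice correlated at -0.099 across genes, but with 2 mice per group this value cannot decide whether they were paired. The block changed no call among the 7 genes. The cause of these changes was not tested.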
